A study of Mus musculus with 18 samples.

Results

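The comparison described here sets mouse embryonic stem (ES) cells that had lost Snf2h and then received a wild-type Snf2h back against unmodified wild-type ES cells. Compared are 6 of the 18 RNA libraries of the study, wild-type add-back replicates 1, 2 and 3 and wild type replicates 6, 7 and 8. Where a gene's place between knockout and wild type mattered, it was read against 2 libraries of a knockout line that received a mutant Snf2h (mutant add-back replicates 1 and 3) and 3 of the Snf2h knockout itself (ko replicates 3 to 5). Both add-back lines carry the ko as well. The ko and mutant add-back libraries also entered the fit that gave the p-values. All lines have the strain background 129S6/SvEvTac and grew in serum medium with leukaemia inhibitory factor. Plates were coated with gelatin. The ko and the ATPase-mutant add-back cells differed in that they passed through a layer of embryonic fibroblasts (feeders) in the first passages or longer after thawing. The sources used here give neither the promoter that drives the returned Snf2h nor the number of clones behind a line. Replicates are called biological, but which libraries came from separate cultures is not stated, so p-values measure the spread between these libraries, which may be partly technical.

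Snf2h, the product of Smarca5, is an ATPase of the ISWI family, which uses ATP to slide nucleosomes and to space them evenly. It works in several complexes that differ in their partner subunits, and in ES cells it is known for opening binding sites of CTCF. Snf2l, the product of Smarca1, is the related ISWI ATPase. An add-back asks which of the changes in a knockout line are undone when the protein returns. An incomplete return, the history of the line and the culture cannot be told apart as sources of what remains.

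The 3 add-back libraries held 15.3 to 16.4 M counts and the 3 wild-type libraries 16.8 to 19 M. The 8 markers of ES cells summed to 5440 to 5820 CPM (counts per M counts of the library, scaled by TMM) in the add-back and to 5390 to 5550 CPM in wild type, and all 8 reached 1 CPM. The chi-square per gene between add-back replicates 1 and 2 was 2.09, against 4.58 and 6.72 for the pairs that hold add-back replicate 3, and 1.48 to 2.16 for wild-type pairs. Wild-type libraries of the study also differ among themselves. In 1 fit of all 18 libraries edgeR's quasi-likelihood test called 6484 genes (43.5%) between wild type 1 and 2 and wild type 6 to 8, and 8036 (53.9%) between wild type 3 to 5 and wild type 6 to 8. The same fit called 3357 (22.5%) between the add-back and wild type 6 to 8. For this reason genes below are also set against the range of all 8 wild-type libraries, as CPM scaled over the 18 libraries, and a gene is outside that range when all 3 add-back libraries lie on the same side of all 8.

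Of the 14488 genes tested, 4786 (33.0%) differed between the add-back and wild type 6 to 8 at an adjusted p under 0.05, 2317 (16.0%) higher and 2469 (17.0%) lower. Differences of at least 2-fold were called for 254 genes (1.75%) higher and 304 (2.10%) lower in the add-back. Of the 4786 genes 811 had add-back libraries outside the range of all 8 wild-type libraries, 346 above and 465 below. Over all 18 libraries, with 1 wild-type group and 1 ko group, 238 genes were called. The ko replicates 3 to 5 had 1287 genes (8.88%) above wild type 6 to 8 by 2-fold or more and 1020 (7.04%) below it.

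Of these 2307 genes changed at least 2-fold in ko, 60.6% had no call between the add-back and wild type and differed by less than 2-fold (returned). A further 27.4% were either called at less than 2-fold or at least 2-fold apart without a call. The remainder were called and still at least 2-fold away in the direction of ko (not restored, 9.97%) or in the opposite direction (overshooting, 2.04%). Both comparisons use the same wild-type libraries, so these shares describe positions between ko and wild type and are not independent evidence.

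Prss41, a serine protease gene, shows a return. It had 12.0, 11.1 and 9.22 CPM in the add-back, 0.114 and 0 CPM in the mutant add-back, 0.0562, 0 and 0.116 CPM in ko and 9.03, 9.18 and 9.96 CPM in wild type. The add-back overlapped wild type and was not called (0.20 ± 0.12, a log2 difference with its SE, adjusted p = 0.20). Lef1, which encodes a Wnt-responsive DNA-binding protein, averaged 15.9 ± 1.57 CPM in the add-back and 8.26 ± 1.41 CPM in wild type (SD, n = 3 each, edgeR's adjusted p = 4.0e-06), with 0.402 CPM in ko. It rose above the compared wild type by 0.94 ± 0.11 and lay inside the 6.76 to 20.8 CPM of all 8 wild-type libraries. Tdrd12, a piRNA pathway gene, rose by 0.76 ± 0.07, with 41.3 CPM in the add-back, 1.39 CPM in ko and 24.3 CPM in wild type. Otx2, a homeobox gene of the formative state, rose by 0.61 ± 0.06, with 65.2 CPM in the add-back, 16.2 CPM in ko and 42.6 CPM in wild type. For both, the add-back overlapped the range of all 8 wild-type libraries, and Lef1, Tdrd12 and Otx2 all lost their call over all 18 libraries.

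**Figure D1:**
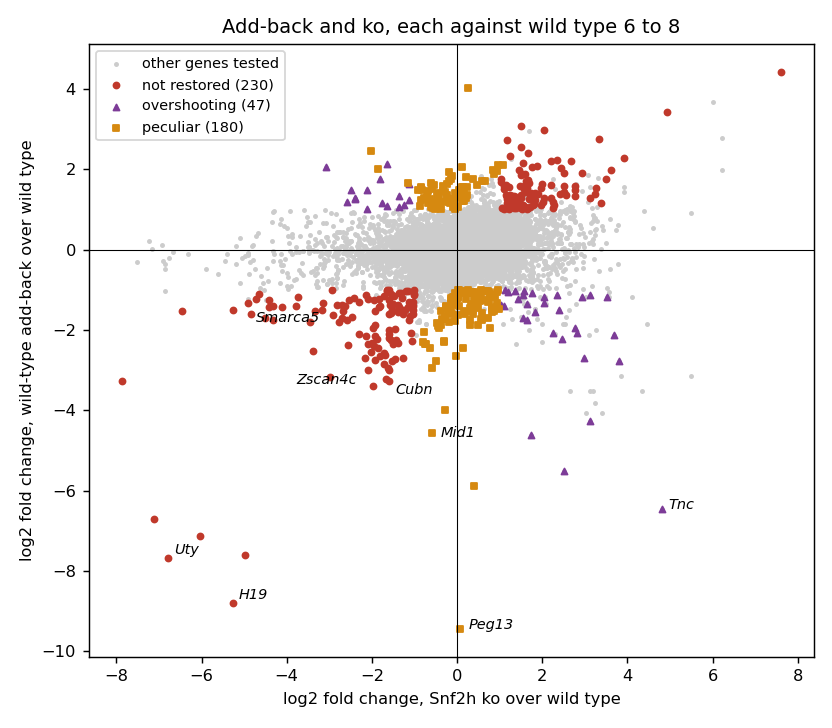
Each point is 1 of the genes tested, with the log2 fold change of Snf2h ko over wild type on the horizontal and of the wild-type add-back over wild type on the vertical axis. The 230 not restored, 47 overshooting and 180 peculiar genes are coloured, both axes share wild type 6 to 8, and the fitted positions of genes at 0 counts in the add-back, such as Peg13 and Tnc, depend on the prior count of the fit.

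The returned gene itself was below its wild-type transcript level. Smarca5 (Entrez 93762, chromosome 8, 80699943 to 80739459, GRCm38) had 83.4, 83.8 and 90.0 CPM in the add-back, 48.1 and 68.3 CPM in the mutant add-back, 10.1, 9.64 and 8.67 CPM in ko and 214, 199.7 and 195 CPM in wild type. The groups did not overlap, and the add-back mean was 42.2% of wild type, against 28.7% in the mutant add-back and 4.66% in ko. The add-back differed from wild type by -1.24 ± 0.09 on the log2 scale (adjusted p = 6.0e-08) and was below all 8 wild-type libraries, which ran from 139 to 213 CPM. The counts do not separate endogenous from returned transcripts and say nothing of protein. Smarca1 had 28.5, 26.3 and 30.5 CPM in the add-back, 14.7 and 15.0 CPM in the mutant add-back, 18.8, 20.2 and 20.0 CPM in ko and 23.4, 23.3 and 20.9 CPM in wild type. Its rise of 0.33 ± 0.07 (adjusted p = 0.0017) left the add-back overlapping the 21.0 to 28.9 CPM of all 8 wild-type libraries, and was not called over all 18 libraries.

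The 4 Y-linked transcripts that were lower in ko did not return. Of 5 listed Y-linked genes tested, 0 were higher and 4 were lower in the add-back, each of the 4 outside the range of all 8 wild-type libraries. Ddx3y, a male-specific RNA helicase gene (chromosome Y, 1260715 to 1286628), had 0.191, 0.429 and 0.807 CPM in the add-back, 0.229 and 0.396 CPM in the mutant add-back, 0.393, 0.421 and 0.231 CPM in ko and 49.8, 50.9 and 47.8 CPM in wild type. The add-back was 104-fold lower than wild type (-6.70 ± 0.16, adjusted p = 3.1e-16). Both add-backs and ko were near 0, and all wild-type libraries were far above them. Eif2s3y, which encodes a translation initiation factor subunit, averaged 0.466 CPM in the add-back and 66.7 CPM in wild type (-7.13 ± 0.14). Uty, a gene of the histone demethylase family, averaged 0.131 CPM in the add-back and 27.4 CPM in wild type (-7.67 ± 0.27). Uba1y, for a ubiquitin-activating enzyme, averaged 0.173 CPM in the add-back and 1.71 CPM in wild type (-3.27 ± 0.41, adjusted p = 1.1e-05). Over all 9 tested genes of the Y chromosome these 4 were the only ones called in the add-back, and the median was -1.6 in the add-back and 1.7 in ko over wild type, since the other 5 were higher in ko. The autosomes had median differences of -0.027 to 0.064 and the X chromosome of 0.041 on the log2 scale.

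H19, an imprinted long noncoding RNA expressed from the maternal allele (chromosome 7, 142575530 to 142578146), had 0.254, 0.0613 and 0.336 CPM in the add-back, from 10 counts in all, 2.63 and 3.40 CPM in the mutant add-back, 2.08, 2.16 and 3.47 CPM in ko and 91.3, 101 and 104 CPM in wild type. The add-back was the lowest of the lines, and no line overlapped wild type. It differed by -8.81 ± 0.19 from wild type (adjusted p = 3.1e-16) and by -3.54 from ko (adjusted p = 3.7e-07). In ko replicates 1 and 2, which share no library with the add-back comparison, H19 was at 19.1 and 21.6 CPM, against 134 and 132 CPM in wild type 1 and 2. Igf2, the neighbouring growth factor gene expressed from the paternal allele, had 14.4, 12.9 and 14.8 CPM in the add-back, 45.9 and 43.2 CPM in the mutant add-back, 25.4, 26.0 and 26.0 CPM in ko and 24.5, 26.9 and 25.8 CPM in wild type. The add-back was thus below each of the other lines, by -0.87 ± 0.07 against wild type (adjusted p = 3.9e-08). It was also below the 19.8 CPM of the lowest of the 8 wild-type libraries, though its call was lost over all 18 libraries. In ko 1 and 2 Igf2 was higher, at 89.7 and 101.5 CPM, against 21.3 and 22.7 CPM in wild type 1 and 2. The other ko libraries overlapped wild type, so the ko effect on Igf2 depended on the libraries compared. Of 50 imprinted genes tested 12 were higher and 15 lower, against 16.0% and 17.0% of all genes, with a median of 0.0082.

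**Figure D2:**
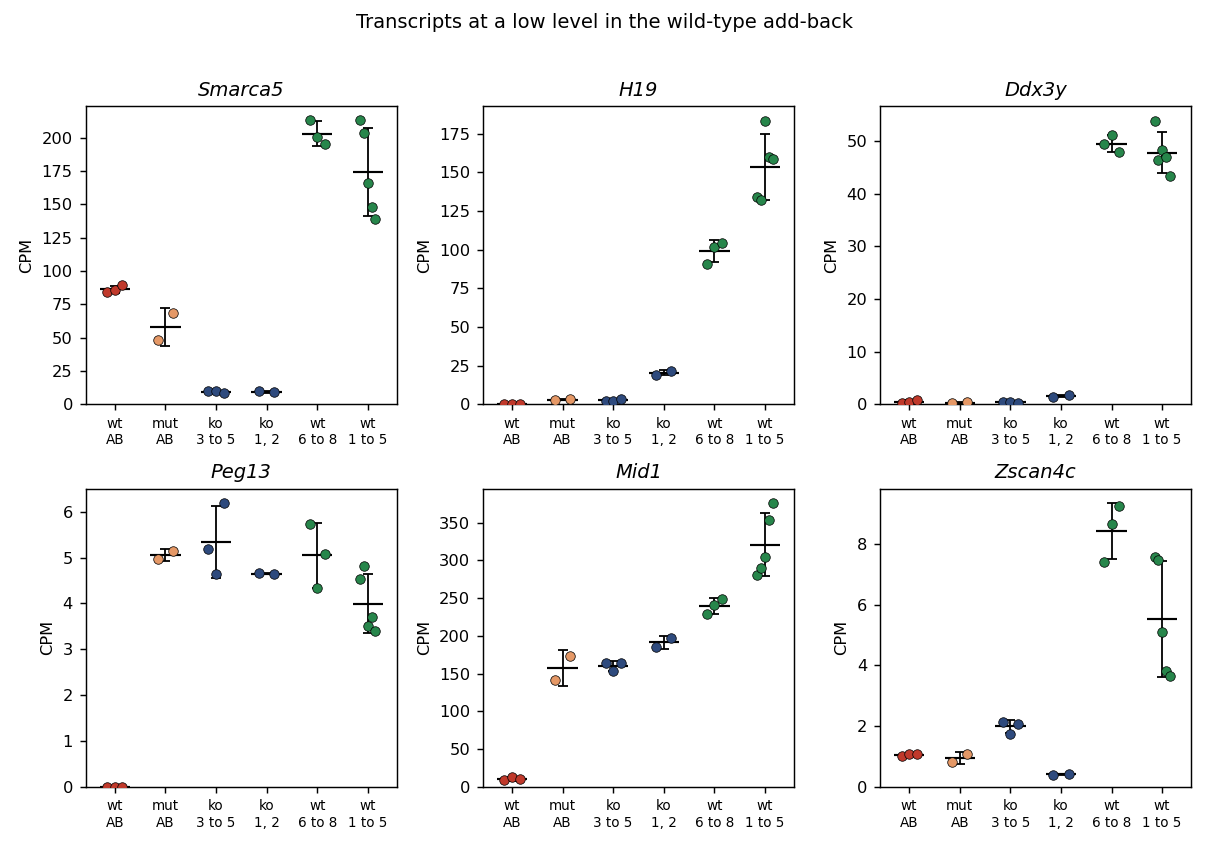
CPM of 6 genes in each library, scaled over the 18 libraries, for the wild-type add-back (wt AB), the mutant add-back (mut AB), ko and wild type (wt). Points are libraries and bars the mean with the SD, and the wild-type add-back lies below every wild-type library in each panel. For Peg13, ko and the mutant add-back overlap wild type. For Mid1, they lie below every wild-type library but far above the wild-type add-back.

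Transcripts of the 2-cell-like state, a rare and transient condition of ES cells marked by the Zscan4 genes, stayed low. Of 8 tested genes 0 were higher and 7 lower, against 16.0% and 17.0% of all genes, with a median of -2.5. Of the 7, 6 were below all 8 wild-type libraries, as were 465 of the 2469 genes called lower. Zscan4c (chromosome 7, 11005745 to 11010547) had 1.02, 1.04 and 1.08 CPM in the add-back, 0.800 and 1.08 CPM in the mutant add-back, 2.13, 1.74 and 2.08 CPM in ko and 7.45, 8.63 and 9.22 CPM in wild type. It differed from wild type by -3.0 ± 0.17 (adjusted p = 1.3e-10). Both add-backs were below ko 3 to 5, and ko below wild type, whose 8 libraries ran from 3.67 to 9.24 CPM. In ko 1 and 2 Zscan4c was at 0.398 and 0.429 CPM, below the add-back, so the order of add-back and ko turns round with the ko libraries. Zscan4a, Zscan4b, Zscan4d and Zscan4f differed from wild type by -2.56, -2.45, -2.33 and -2.76. These copies are near-identical and may share reads, so single members are uncertain. The promoters of Zscan4c and Zscan4f, which moved together, are shown because they display that likeness. Both are the 250 bases before the gene start on the plus strand, from RefSeq on GRCm38.p6, at chr7:11005495-11005744 and chr7:11397665-11397914, with each CpG (the letters CG) in capitals. They share an unbroken run of 127 bases, offset by 23 bases, and each holds 3 CpG. The promoter of Ddx3y at chrY:1286614-1286863, read on the minus strand and holding 14 CpG, is set beside them.
Zscan4c: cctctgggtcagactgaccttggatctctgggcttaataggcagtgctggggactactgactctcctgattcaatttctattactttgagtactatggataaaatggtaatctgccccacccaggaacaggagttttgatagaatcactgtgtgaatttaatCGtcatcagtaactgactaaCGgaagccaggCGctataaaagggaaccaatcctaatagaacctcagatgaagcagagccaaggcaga
Zscan4f: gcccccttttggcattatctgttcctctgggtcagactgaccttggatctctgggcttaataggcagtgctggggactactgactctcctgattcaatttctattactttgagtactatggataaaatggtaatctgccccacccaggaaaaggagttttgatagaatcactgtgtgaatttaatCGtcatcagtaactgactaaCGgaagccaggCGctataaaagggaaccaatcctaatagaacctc
Ddx3y: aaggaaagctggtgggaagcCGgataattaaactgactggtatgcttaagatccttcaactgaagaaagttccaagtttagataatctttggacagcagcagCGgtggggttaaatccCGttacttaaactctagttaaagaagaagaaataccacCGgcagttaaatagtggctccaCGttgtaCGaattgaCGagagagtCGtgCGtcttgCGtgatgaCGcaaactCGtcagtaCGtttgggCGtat

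Promoters with few CpG were common among the genes that stayed low with ko. Counted in windows of 300 bases, 250 before and 50 after the start, at most 5 CpG were present in 41.3% of the 92 not restored lower genes with a promoter in the table. The share was 26.0% of the 500 genes that were lower in ko and returned, and 9.97% of all 11369 tested genes with a promoter. The median number of CpG was 7, 10 and 20 in these groups. Shares above that of all genes were not limited to genes lower in ko, with 20.8% of not restored higher and 20.8% of peculiar higher genes. Peculiar lower genes had 19.2% and overshooting lower genes 4.55%. Only the first listed start of each gene was counted. These counts describe sequence and do not measure methylation.

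Genes of the endoderm were lower in the add-back. Of 16 tested, 13 were lower and 0 higher, against 17.0% and 16.0% of all genes, and 7 were at least 2-fold lower, against 2.10% of all genes. The median was -0.77, and 3 were outside the range of all 8 wild-type libraries. Cubn, which encodes the endocytic receptor cubilin of visceral endoderm, had 33.0, 31.9 and 42.3 CPM in the add-back, 119 and 177 CPM in the mutant add-back, 126, 110.4 and 108 CPM in ko and 367, 349 and 327 CPM in wild type (-3.28 ± 0.16, adjusted p = 8.6e-08). Dab2, its endocytic adaptor, had 34.9, 34.6 and 38.3 CPM in the add-back, a mean of 111 CPM in the mutant add-back, 87.6, 90.1 and 80.5 CPM in ko and 234, 238 and 241 CPM in wild type (-2.73 ± 0.07, adjusted p = 1.9e-15). The add-back was the lowest line for both genes, but other wild-type libraries came close to it. Dab2 was at 42.0 and 41.0 CPM in wild type 1 and 2 and 92.4, 68.6 and 73.9 CPM in wild type 3 to 5, and neither gene was called over all 18 libraries (adjusted p = 0.15 for Cubn and 0.089 for Dab2). In ko 1 and 2 both genes were above wild type 1 and 2, opposite to ko 3 to 5. Dab2 was at 124 and 127 CPM there. Cubn was at 234 and 254 CPM, against 44.2 and 47.8 CPM in wild type 1 and 2.

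Hnf4a, an endoderm transcription factor gene, differed by -2.24 ± 0.15 and was outside the wild-type range. The endoderm regulators Sox7 (-1.41) and Gata6 (-1.08) were lower than wild type 6 to 8 without overlap, but lay within the range of all 8 wild-type libraries. Hnf4a, Sox7, Gata6 and Amn all lost their call over all 18 libraries. Amn, which encodes the partner of cubilin, had 3.43, 5.09 and 3.16 CPM in the add-back, 32.9 and 31.5 CPM in the mutant add-back, 15.4, 15.2 and 16.1 CPM in ko and 19.4, 17.9 and 20.6 CPM in wild type. In a bulk sample, fewer cells of a type and less RNA per cell cannot be told apart. The 6 endoderm markers summed to 156 to 163 CPM in the add-back and 446 to 459 CPM in wild type, and none was at 0. The median of the endoderm list was 2.3 in ko 1 and 2 against wild type 1 and 2, and -0.88 in ko 3 to 5 against wild type 6 to 8.

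Dpp4, a membrane peptidase gene, did not return, with 11.6, 11.3 and 11.8 CPM in the add-back, 16.6 and 19.7 CPM in the mutant add-back, 17.5, 17.6 and 17.9 CPM in ko and 39.6, 37.8 and 38.8 CPM in wild type (-1.74 ± 0.07, adjusted p = 3.0e-12). It was below all 8 wild-type libraries, though its call was lost over all 18 libraries. Dnmt3a, a de novo DNA methyltransferase gene, had 133, 136 and 142 CPM in the add-back, 71.0 and 67.2 CPM in the mutant add-back, 89.8, 85.2 and 87.2 CPM in ko and 283, 269.5 and 271 CPM in wild type (-1.0 ± 0.05, adjusted p = 1.4e-11). The add-back stood between ko and the compared wild type, but wild type 1 and 2 were at 137 and 139.8 CPM, within the 134 to 141 CPM of the add-back on the same scale, and the call was lost over all 18 libraries. In all, 119 genes were lower and 111 higher at 2-fold in both the add-back and ko, of which 51 and 24 were outside the range of the 8 wild-type libraries.

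Thbd, which encodes the anticoagulant receptor thrombomodulin, is among the 24, with 5.28, 6.07 and 5.99 CPM in the add-back, 8.74 and 10.1 CPM in the mutant add-back, 4.95, 6.0 and 5.38 CPM in ko and 1.52, 1.88 and 1.79 CPM in wild type (1.74 ± 0.16, adjusted p = 8.4e-08). Its add-back libraries overlapped those of ko. Cd44, a hyaluronan receptor gene, averaged 4.86 CPM in the add-back, 10.2 CPM in ko and 1.80 CPM in wild type (1.43 ± 0.26, adjusted p = 0.00067). Cxcl10, a chemokine gene, averaged 2.88 CPM in the add-back, 2.23 CPM in ko and 0.785 CPM in wild type (1.86 ± 0.24, adjusted p = 7.2e-06). Both were above all 8 wild-type libraries, and Thbd and Cxcl10 but not Cd44 kept their call over all 18 libraries. Ddit4, a stress-induced inhibitor of mTOR signalling, averaged 57.3 CPM in the add-back, 62.2 CPM in ko and 20.0 CPM in wild type 6 to 8 (1.52 ± 0.07, adjusted p = 4.1e-12). The 8 wild-type libraries ran from 18.6 to 156 CPM, and over all 18 libraries the difference was -0.47 (adjusted p = 0.72).

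The ko libraries 1 and 2 give a measure of the ko effect that shares no library with the add-back comparison. Of the not restored genes tested there, 65 of 97 lower genes were below wild type 1 and 2 and 90 of 111 higher genes above. Both shares were larger among returned genes, with 563 of 602 lower genes below and 695 of 739 higher genes above. Genes in no class split into 5770 above and 6074 below. In that fit 1592 genes (11.1%) were raised by 2-fold or more in ko and 1216 (8.49%) lowered as much. Of the 1592, 15.5% were higher and 27.1% lower in the add-back than in wild type 6 to 8, against 16.0% and 17.0% of all genes. Of the 1216, 19.7% were higher and 16.0% lower.

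Overshooting genes numbered 31 below and 16 above wild type, of which 12 and 5 were outside the range of all 8 wild-type libraries. The number depended on the libraries that gave the ko effect. That effect was also taken from ko 1 and 2 against wild type 1 and 2, so the wild-type reference changed too. Then 129 genes overshot below and 53 above, against 56 and 81 not restored. Tnc, which encodes the matrix glycoprotein tenascin C, had 0 counts in all 3 add-back libraries, against 10.7 and 18.5 CPM in the mutant add-back, 15.2, 19.3 and 19.1 CPM in ko and 0.653, 0.547 and 0.691 CPM in wild type. With a floor of 3 counts over the group, it was at least 9.88-fold lower in the add-back than in wild type (adjusted p = 0.015), a call lost over all 18 libraries. The ko and the mutant add-back were above wild type and the wild-type add-back below it, with no overlap.

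Bgn, a matrix proteoglycan gene, averaged 0.835 CPM in the add-back, 22.1 CPM in ko and 3.26 CPM in wild type (-1.96 ± 0.30, adjusted p = 8.9e-05). Fbln2, encoding fibulin 2, differed from wild type by -1.19 ± 0.33 (adjusted p = 0.012), a call lost without wild type replicate 6 (adjusted p = 0.054). Lox, encoding a collagen crosslinking enzyme, averaged 0.0653 CPM in the add-back and 0.475 CPM in wild type (-2.77 ± 0.90, adjusted p = 0.026), a call lost without wild type replicate 6 or add-back replicate 1 or 2 (adjusted p = 0.097, 0.092 and 0.080). Bgn, Fbln2 and Lox are the 3 of the 31 genes that are also on the list of feeder fibroblast genes, which holds 24 of the 14488 genes tested. Of these 24, 9 were called lower, 3 of them at 2-fold. Another 4 were called higher, 2 of them at 2-fold, with Thbs1 (0.77) among the 4. The 10 defining feeder markers, of which 3 reached 1 CPM, summed to 21.8 to 22.8 CPM in the add-back and 28.6 to 30.4 CPM in wild type. Postn was at 0 in the add-back, and Lum and Twist2 were at 0 in wild type. Genes near 0 in the add-back and wild type, such as Lox, could pass the count filter through ko or the mutant add-back. The part of feeder cells in these values was not tested.

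Stra8, a gene that responds to retinoic acid at meiotic entry, had 5.53, 4.54 and 4.51 CPM in the add-back, 31.9 and 23.9 CPM in the mutant add-back, 26.4, 26.0 and 30.3 CPM in ko and 12.2, 13.2 and 13.3 CPM in wild type (-1.41 ± 0.14, adjusted p = 3.5e-07). It was below all 8 wild-type libraries. In ko 1 and 2 against wild type 1 and 2 it differed by -0.78, opposite to ko 3 to 5. Prrx2, a mesenchymal homeobox gene, differed by -1.01 ± 0.15 (adjusted p = 3.0e-05) and the imprinted potassium channel gene Kcnq1 by -2.07 ± 0.51 (adjusted p = 0.0043). Below the 2-fold limit, abundant genes also passed wild type. Tbx3, a naive pluripotency factor gene, averaged 77.7 CPM in the add-back, 203 CPM in ko and 116 CPM in wild type (-0.57 ± 0.05, adjusted p = 3.7e-08). Pmaip1, the apoptosis gene for Noxa, averaged 64.7 CPM in the add-back, 155 CPM in ko and 90.0 CPM in wild type (-0.48 ± 0.05, adjusted p = 1.7e-06). Both lay below all 8 wild-type libraries. Over all 18 libraries Stra8, Tbx3 and Pmaip1 kept their call, and Prrx2 lost it.

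In the other direction, Ptger3, a prostaglandin E2 receptor gene, had 5.66, 5.03 and 5.79 CPM in the add-back, 2.52 and 2.38 CPM in the mutant add-back, 0.618, 0.790 and 0.983 CPM in ko and 1.74, 1.22 and 2.30 CPM in wild type. It rose by 1.63 ± 0.18 (adjusted p = 1.1e-06) and was above the 3.60 CPM of the highest of the 8 wild-type libraries, though its call was lost over all 18 libraries. Of the overshooting lower genes 29 of 30 tested were higher in ko 1 and 2 than in wild type 1 and 2, and of the overshooting higher genes 12 of 13 were lower there.

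A further 180 genes were classed as peculiar to the rescued line, without regard to the mutant add-back. For these the add-back differed at least 2-fold from both wild type and ko in the same direction. The ko had no call of at least 2-fold against wild type. The 180 were 100 lower and 80 higher genes, and 30 and 19 were outside the range of all 8 wild-type libraries. With the ko effect taken from ko 1 and 2 against wild type 1 and 2 the class held 39 lower and 25 higher genes. The ko libraries and the wild-type reference of that effect changed together, so their parts in this drop cannot be told apart. Of the 100 lower genes 91 were also at least 2-fold lower in the add-back than in the mutant add-back, and of the 80 higher genes 56 were at least 2-fold higher. The class shares the add-back libraries with these counts, which therefore only describe it. Against wild type, the mutant add-back was called at least 2-fold higher for 14 of the 80 higher genes and lower for 9. Of the 100 lower genes it was called at least 2-fold lower for 2 and higher for 12.

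Peg13, an imprinted noncoding RNA expressed from the paternal allele (chromosome 15, 72805602 to 72810324), had 0 counts in all 3 add-back libraries, against 4.97 and 5.15 CPM in the mutant add-back, 5.17, 4.63 and 6.19 CPM in ko and 5.77, 4.32 and 5.07 CPM in wild type. With the floor of 3 counts over the group, it was at least 79.4-fold lower than in wild type (adjusted p = 1.1e-09), and the 8 wild-type libraries ran from 3.41 to 5.74 CPM. It lies within the span of Trappc9, a gene of vesicle trafficking, which had 36.2, 35.5 and 37.3 CPM in the add-back and 33.1, 32.5 and 32.3 CPM in wild type. Trappc9 was not called (0.16 ± 0.07, adjusted p = 0.080), though it was with the 6 compared libraries alone (adjusted p = 0.032), and it was not lower in any add-back library than in wild type 6 to 8.

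Mid1, an X-linked gene for a microtubule-associated ubiquitin ligase (chromosome X, 169685199 to 169990798), had 8.39, 12.2 and 9.82 CPM in the add-back, 141 and 174 CPM in the mutant add-back, 164, 153 and 164 CPM in ko and a mean of 239.8 ± 9.17 CPM (SD, n = 3) in wild type. It was 23.6-fold lower in the add-back (-4.56 ± 0.10, adjusted p = 4.3e-14), whereas the means of ko and the mutant add-back were within 2-fold of wild type. Its neighbour Hccs, a mitochondrial haem lyase gene, was not called (0.15, adjusted p = 0.062). Arhgap6, which encodes a GTPase-activating protein, was higher by 1.08 ± 0.17 (adjusted p = 0.00010), at 3.61 CPM in the add-back and 1.70 CPM in wild type. RefSeq lists 3 starts for Mid1, with 2, 6 and 13 CpG in 300 bases, and the gene counts do not tell which was used. The 250 bases before the first start, chrX:169684949-169685198 on the plus strand, hold 0 CpG and so no capitals.
Mid1: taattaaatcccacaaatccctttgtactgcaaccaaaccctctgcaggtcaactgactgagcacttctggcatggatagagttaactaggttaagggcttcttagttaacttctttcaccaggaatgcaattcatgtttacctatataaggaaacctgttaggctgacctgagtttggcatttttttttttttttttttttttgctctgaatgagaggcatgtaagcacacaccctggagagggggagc

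Clic5, a chloride channel family gene, had 0.890, 0.981 and 0.875 CPM in the add-back, 6.17 and 6.34 CPM in the mutant add-back, 4.95, 4.63 and 4.62 CPM in ko and 7.13, 7.11 and 7.08 CPM in wild type (-2.94 ± 0.15, adjusted p = 4.5e-11). It was below all 8 wild-type libraries. Dkk1, a secreted Wnt inhibitor gene, averaged 0.895 CPM in the add-back, 8.09 CPM in the mutant add-back, 4.35 CPM in ko and 6.15 CPM in wild type (-2.77 ± 0.21, adjusted p = 7.6e-09), but its 8 wild-type libraries ran from 0.515 to 6.93 CPM. F2r, a thrombin receptor gene, had 47.8, 43.1 and 51.5 CPM in the add-back, 172 and 166 CPM in the mutant add-back, 153, 158 and 153 CPM in ko and 106, 103 and 108 CPM in wild type (-1.15 ± 0.06, adjusted p = 3.5e-11). Rhox5, an X-linked homeobox gene, had 31.9, 34.4 and 28.9 CPM in the add-back, 118 and 94.6 CPM in the mutant add-back, 73.2, 73.6 and 71.2 CPM in ko and 83.0, 89.3 and 87.2 CPM in wild type (-1.45 ± 0.08, adjusted p = 1.7e-10). F2r and Rhox5 were also below all 8 wild-type libraries. Over all 18 libraries Clic5 and Rhox5 kept their call, and F2r and Dkk1 lost it. In ko 1 and 2, 89 of the 100 peculiar lower genes were above wild type 1 and 2.

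Several higher genes were shared by both add-back lines. Ankrd1, a YAP target that encodes an ankyrin repeat protein, had 24.0, 25.5 and 23.5 CPM in the add-back, 27.2 and 29.7 CPM in the mutant add-back, 10.9, 12.4 and 12.8 CPM in ko and 5.39, 6.38 and 7.26 CPM in wild type (1.94 ± 0.10, adjusted p = 4.5e-11). Bmp2, a growth factor gene, had 7.31, 7.30 and 7.87 CPM in the add-back, 5.43 and 4.93 CPM in the mutant add-back, 1.63, 2.32 and 2.02 CPM in ko and 2.50, 2.79 and 2.25 CPM in wild type (1.57 ± 0.14, adjusted p = 4.9e-08). Both add-backs were above ko 3 to 5 and wild type 6 to 8 for both genes, with no overlap. Ctgf, a matricellular YAP target that was less than 2-fold above ko and so not in the peculiar class, had 194, 195 and 189 CPM in the add-back, 246 and 232 CPM in the mutant add-back, 119, 130.1 and 129.5 CPM in ko and 77.0, 75.7 and 78.5 CPM in wild type (1.32 ± 0.05, adjusted p = 7.0e-13). Cyr61, a related matricellular gene, rose by 0.78 ± 0.05 (adjusted p = 5.9e-10).

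The tissue factor gene F3 rose by 1.21 ± 0.07, with 74.6 CPM in the add-back, 83.8 CPM in the mutant add-back and 32.4 CPM in wild type. Crim1, whose product binds BMPs, rose by 1.36 ± 0.09, with 39.6 CPM in the add-back, 34.1 CPM in the mutant add-back and 15.4 CPM in wild type. The early response gene Ier3 rose by 1.27 ± 0.08 and the histidine decarboxylase gene Hdc by 1.43 ± 0.15. Krt8, a keratin gene of simple epithelia, averaged 64.6 CPM in the add-back, 176 CPM in the mutant add-back, 77.7 CPM in ko and 42.8 CPM in wild type (0.60 ± 0.07, adjusted p = 2.4e-06). Thbs1, a matrix glycoprotein gene, averaged 27.2 CPM in the add-back, 104 CPM in the mutant add-back, 83.5 CPM in ko and 15.9 CPM in wild type (0.77 ± 0.15, adjusted p = 0.0018). All the genes of this and the preceding paragraph were above the 8 wild-type libraries in the wild-type add-back. In the fit of all 18 libraries Bmp2, Hdc and Thbs1 kept their call, and Ankrd1, Ctgf, Cyr61, F3, Crim1, Ier3 and Krt8 lost it. The ko libraries 1 and 2 were not low in these genes. Against wild type 1 and 2 their log2 differences were 1.25 for Ankrd1, 3.04 for Ctgf, 2.62 for F3, 2.04 for Crim1 and 1.79 for Bmp2.

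**Figure D3:**
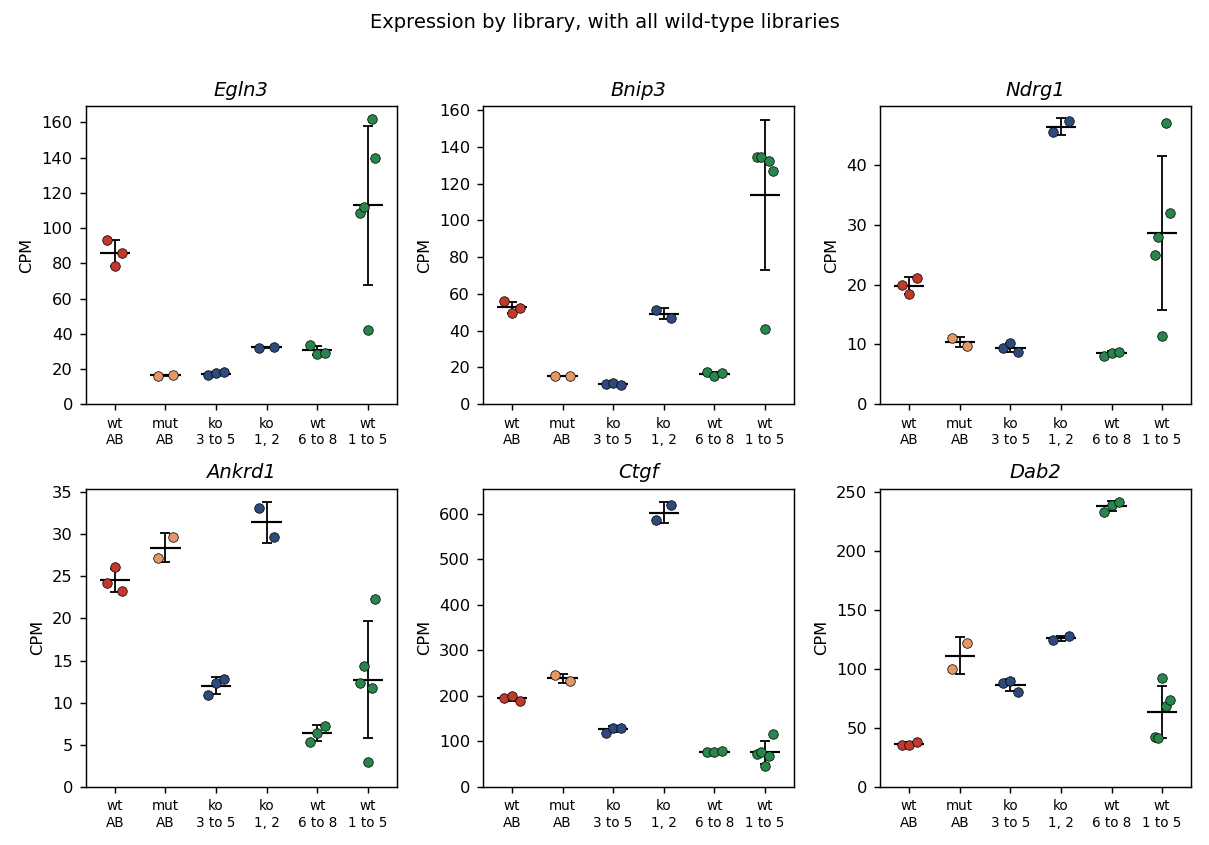
CPM of 6 genes in each library, scaled over the 18 libraries, with wild type 6 to 8 and wild type 1 to 5 drawn apart (AB, add-back). Points are libraries and bars the mean with the SD, and for Egln3, Bnip3 and Ndrg1 some libraries of wild type 1 to 5 reach above the add-back, whereas for Ankrd1 and Ctgf none does.

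Genes of glycolysis and hypoxia depended on which wild-type libraries they were set against. Of 27 tested, 20 were higher and 1 lower than in wild type 6 to 8, against 16.0% and 17.0% of all genes, with a median of 0.24, and 0 of the 20 were outside the range of all 8 wild-type libraries. Bnip3, a mitophagy receptor gene, had 55.4, 48.8 and 52.7 CPM in the add-back, 15.5 and 15.2 CPM in the mutant add-back, 10.8, 11.4 and 10.3 CPM in ko and 17.6, 15.3 and 16.8 CPM in wild type 6 to 8 (1.65 ± 0.07, adjusted p = 3.8e-12). On the scale of all 18 libraries wild type 1 and 2 had 135 and 134 CPM and wild type 3 to 5 40.7, 132 and 127 CPM. The add-back was thus above wild type 6 to 8 and below 4 of the other 5 wild-type libraries. Egln3, an oxygen-sensing prolyl hydroxylase gene, averaged 85.3 CPM in the add-back and 30.6 CPM in wild type 6 to 8 (1.48 ± 0.07, adjusted p = 3.5e-11), with 108 and 112 CPM in wild type 1 and 2 and 42.3, 162 and 139.5 CPM in wild type 3 to 5. Ndrg1, another gene induced by hypoxia, rose by 1.21 ± 0.09, the protease inhibitor gene A2m by 1.75 ± 0.12 and the epoxide hydrolase gene Ephx2 by 1.54 ± 0.06. Over all 18 libraries Bnip3 differed by -0.57, Ndrg1 by -0.11 and A2m by -0.88 (adjusted p = 0.73, 0.95 and 0.56), and Egln3 and Ephx2 lost their call.

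Of 25 genes of core and naive pluripotency 10 were higher and 4 lower, against 16.0% and 17.0% of all genes, with 0 at 2-fold. Pou5f1, the gene of the core factor Oct4, had 1555, 1609 and 1452 CPM in the add-back and 1650.0, 1750.0 and 1731 CPM in wild type (-0.15 ± 0.05, adjusted p = 0.032). That call was lost without wild type replicate 7 or 8 or add-back replicate 1 or 3 (adjusted p = 0.12, 0.11, 0.074 and 0.14), and the difference was 0.14 over all 18 libraries. Nanog, another core factor gene, was not called (0.09, adjusted p = 0.11), while Sox2 rose by 0.36 ± 0.05 (adjusted p = 3.3e-05). Klf2, a naive factor gene, averaged 188 CPM in the add-back, 62.9 CPM in ko and 126 CPM in wild type (0.58 ± 0.05, adjusted p = 1.3e-07). Of 19 formative and primed genes 5 were higher and 8 lower. Nodal, a ligand of the activin branch, averaged 48.5 CPM in the add-back, 47.5 CPM in ko and 61.5 CPM in wild type (-0.34 ± 0.05, adjusted p = 5.3e-05), below all 8 wild-type libraries. Over all 18 libraries Sox2, Klf2 and Nodal lost their call.

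Lists of the remodelling machinery are set beside the 33.0% of all genes that were called. Of 14 ISWI subunits 1 was higher and 2 lower, Smarca5 and Smarca1 among them. Of 24 SWI/SNF subunits 2 were higher and 3 lower, of 18 other remodelling ATPases 2 and 2, and of 19 CTCF and cohesin genes 2 and 2. With the 6 compared libraries alone these counts were 1 and 4, 4 and 6, 7 and 3, and 3 and 3 in the same order. REST and its corepressors gave 1 higher and 1 lower of 11, and neuronal REST targets 7 and 3 of 19. Germline and piRNA genes gave 5 higher and 17 lower of 30 (median -0.28), a count that fell to 9 lower by DESeq2, to 11 and 10 without wild type replicate 6 or 7 and to 2 over all 18 libraries. Polycomb genes gave 6 and 11 of 29 (median -0.14). Of 12 DNA methylation genes 1 was higher and 4 lower. Of 22 p53 targets 11 were higher and 3 lower (median 0.27), of 21 immediate early genes 7 and 4, of 14 interferon response genes 8 and 1, and of 23 cholesterol synthesis genes 9 and 3.

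The lists that follow stand beside 16.0% of all genes called higher and 17.0% called lower. Primitive streak and mesoderm genes gave 2 higher and 6 lower of 13, neuroectoderm genes 2 and 1 of 7, trophectoderm genes 4 and 6 of 15, and Hox genes 0 and 2 of 13. Feeder fibroblast genes gave 4 higher and 9 lower of 24, with a median of -0.61, against 2.4 in ko. Clustered protocadherins gave 22 higher and 0 lower of 36, with a median of 0.22, and 0 were outside the range of all 8 wild-type libraries. The 22 all belong to the gamma cluster, whose members share exons, and nearly equal values (0.19 to 0.23) are what shared reads would give, so single members are uncertain.

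**Figure D4:**
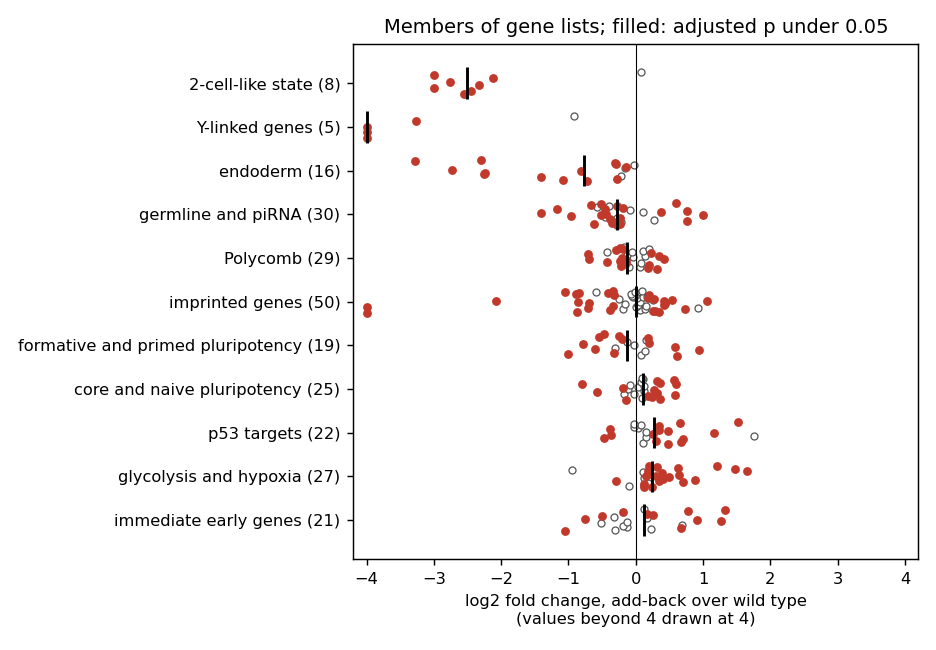
Log2 fold changes of the wild-type add-back over wild type for the tested members of a selection of the 26 gene lists. Each point is a gene, filled where the adjusted p is under 0.05, the vertical bar is the median, and values beyond 4 are drawn at 4. The medians of the 2-cell-like (-2.5), Y-linked (-6.7) and endoderm (-0.77) lists lie furthest below 0. Those of the germline and piRNA (-0.28), Polycomb (-0.14) and formative and primed (-0.13) lists are below 0 as well.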

How the data were processed

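Polyadenylated RNA was sequenced from stranded TruSeq libraries. The values are raw counts of reads per gene deposited by the authors as 1 table with Entrez identifiers. Per the submitters' processing notes, bcl2fastq 2.17 and STAR were used and the build was mm10 (GRCm38). Not given in the sources used here are the version of STAR, the counting tool and whether it used strand, so reads of overlapping antisense genes may not be separated. Genes without a symbol (9) were kept under their identifiers.

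The 11 libraries with the lowest totals (15.3 to 19 M counts: wild-type add-back 1 to 3, mutant add-back 1 and 3, ko 3 to 5, wild type 6 to 8) were fitted together (edgeR 4.0.16, R 4.3.3). Each group had its own mean, libraries were scaled by TMM, genes were filtered by filterByExpr at a count minimum of 10, and the robust quasi-likelihood test (two-sided) was adjusted by Benjamini-Hochberg over all 14488 genes. Calls were made at an adjusted p under 0.05, and fold changes are log2 with their SE. Ko 1 and 2 against wild type 1 and 2 had a fit of their own. Lists were not tested, and are described by counts and medians. Coordinates come from RefSeq for 14472 genes. Alternatives were other scalings, filters, DESeq2 1.42.0, other library sets and leaving out each replicate. The script was tested on simulated data.

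The comparison, the classes and the 26 gene lists were chosen with earlier results of these data known. Genes were eligible for naming when called, at 5 CPM or more on average in the higher group, without overlap between the add-back and wild type, and not under a predicted name. From these were taken the 8 largest in each direction, the 6 largest of each class in each direction and up to 4 of each list, with Smarca5, Smarca1 and, whatever their CPM, Y-linked and imprinted genes called at 2-fold. Of 115 such genes, those not in the text were left out for length or are not reported here. A further 23 genes in the text lie outside this rule and were chosen after their values were seen: Zscan4d, Hnf4a, Gata6, Cd44, Cxcl10, Crim1, F3, Hdc, Tnc, Bgn, Fbln2, Lox, F2r, Rhox5, Dpp4, Hccs, Arhgap6, Trappc9, Nanog, Pou5f1, Sox2, Lef1 and Prss41.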

Additional observations from a re-analysis of the deposited data

How the results depend on the processing

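The choice of libraries set the main limit. Fitting all 18 libraries with 1 wild-type group and 1 ko group left 238 calls, 64 higher and 174 lower, with 17 and 70 at 2-fold. That fit pooled the ko sets as well as the wild-type sets, so lost calls cannot be assigned to the wild-type libraries alone. The classes then held 32 lower and 7 higher not restored, 11 lower and 1 higher overshooting, and 22 lower and 3 higher peculiar genes. Of 68 named genes 34 lost their call there with the same direction, namely Smarca1, Igf2, Arhgap6, Zscan4d, Cubn, Dab2, Hnf4a, Sox7, Amn, Gata6, Dkk1, Cd44, Krt8, Prrx2, Ptger3, Ankrd1, Ctgf, Cyr61, Ier3, Crim1, F3, Egln3, Ephx2, Dnmt3a, Nodal, Klf2, Sox2, Lef1, Tdrd12, Otx2, Tnc, F2r, Dpp4 and Lox. Trappc9 (-0.0035), Bnip3 (-0.57), Ndrg1 (-0.11), A2m (-0.88), Ddit4 (-0.47) and Pou5f1 (0.14) changed sign; the cause was not tested. Asking for add-back libraries outside all 8 wild-type libraries, an alternative chosen after seeing the data, left 811 calls, 346 higher and 465 lower, with 58 and 100 at 2-fold, and 51 and 24 not restored, 12 and 5 overshooting and 30 and 19 peculiar genes, lower first. With wild type 1 and 2 in place of 6 to 8, 136 genes were higher by 2-fold or more and 415 lower, against 254 and 304 with wild type 6 to 8. With the ko effect taken from ko 1 and 2 against wild type 1 and 2, 56 lower genes were not restored. Then 129 lower and 53 higher genes overshot, and 39 lower and 25 higher were peculiar.

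An adjusted p under 0.01 left 3005 calls, 1402 higher and 1603 lower, with 16 lower and 6 higher overshooting genes. A mean of at least 1 CPM left 198 genes at 2-fold lower, 58 lower not restored, 5 higher overshooting and 49 higher peculiar genes. DESeq2 gave 10 higher overshooting genes. A fit of the 6 compared libraries alone called 5566 genes, 2730 higher and 2836 lower, with 221 and 252 at 2-fold. With no fold threshold the classes held 1291 lower and 1169 higher not restored, 587 and 501 overshooting, and 468 and 508 peculiar genes.

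Leaving out 1 library in turn gave 3612 to 4299 calls, 1707 to 2031 higher and 1905 to 2268 lower, with 235 to 259 and 274 to 305 at 2-fold. Not restored genes numbered 105 to 123 lower and 99 to 114 higher, overshooting genes 21 to 31 and 11 to 18, and peculiar genes 86 to 96 and 71 to 90. Over all alternatives, 891 of 948 values of named genes kept their direction and their side of the threshold, and of 1092 list values 916 stayed within 1.5 times (counts) or within 1 SD between replicates (medians). No paired analysis was possible because add-back replicates 1 to 3 and wild type replicates 6 to 8 share no replicate number. Genes under about 1 CPM rest on few counts, and their fold changes are imprecise.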
